A study of Mus musculus with 4 samples.

Results

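The 10 genes described here encode matricellular proteins, secreted components of the extracellular matrix of nerve. They are Spp1, Postn, Tnc, Tnxb, Thbs1, Thbs2, Thbs3, Thbs4, Sparc and Sparcl1. They were taken by symbol from a table of 24062 genes, and all 10 passed the filter of 1 CPM (counts scaled to library size) in at least 1 library that kept 14700 genes. RNA was sequenced from sciatic nerve of 4-month-old mice of strain C57BL/6, with 1 library for each of 4 genotypes. PKO-NF1 mice carried P2RY14-/- together with floxed Nf1 (written Nf1fl/f in their label) and Dhh Cre. NF1 mice carried Nf1fl/fl and Dhh Cre, PKO mice carried P2RY14-/- alone, and WT mice carried none of these alleles. The product of P2ry14 is a receptor that couples to G proteins and binds UDP-glucose and related sugars, and Nf1 encodes neurofibromin, a brake on RAS. Dhh-Cre acts in the Schwann cell lineage, and cells of the nerve in which it was never active keep Nf1. The labels do not say how many animals a library holds, and the NF1 library is labelled a repeat.

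Matricellular proteins are deposited in the matrix but bear little of its mechanical load. They bind integrins, growth factors and collagen, and so change how cells attach, migrate and respond to signals. Many are abundant during development and appear again after injury. In peripheral nerve, Schwann cells, fibroblasts, perineurial cells and macrophages are known sources of one or another of them.

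With 1 library per genotype no difference had a replicate check, and each ratio below compares 2 libraries. Levels are CPM scaled by edgeR's TMM factors. Each ratio has a 95% interval that covers counting error only. Reads carried no molecular tag, so PCR copies of 1 molecule are counted apart. A gene was called only where the 2 libraries were at least 2-fold apart and the interval left out 1. In bulk nerve, fewer cells of a type and less RNA per cell cannot be told apart. Library totals ranged over 14111201 to 20362685 counts, and a gene with no count could stand at up to 0.152 to 0.183 CPM, the equivalent of 3 counts. P2ry14 stood at 10.6 CPM in PKO-NF1, 65.3 in NF1, 10.9 in PKO and 37.6 in WT, and Nf1 at 20.5, 63.4, 41.0 and 72.8 CPM in that order. These are totals over whole genes, and PKO, with no Nf1 allele altered, had less Nf1 than the NF1 library. The libraries stood apart in other ways. A list of 20 genes of skeletal muscle held 6.59% of NF1 counts and 0.0135% to 0.131% of those of the other libraries, and 25 ribosomal protein genes took 3.97%, 2.50%, 4.97% and 1.33% in PKO-NF1, NF1, PKO and WT. The Y-linked gene Ddx3y had no count in NF1 against 842 in PKO-NF1, 396 in PKO and 813 in WT. Xist, the RNA of the silenced X, had 9 counts in PKO-NF1, 39699 in NF1, 4948 in PKO and 10304 in WT. By these genes the libraries differed in sex composition, which the labels do not give: PKO-NF1 looked male, NF1 female, and PKO and WT mixed. Sex cannot be told apart from genotype here, least of all in PKO-NF1 vs NF1. Each ratio was also corrected for its trend over transcript length and GC content, by subtracting that trend. Corrected values of the members are given where they end a call, turn a direction or move a call by over 1.5-fold. That rule covers pairs that differ in Nf1 or P2ry14 alone.

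Spp1, Postn, Tnc and Tnxb were the 4 members called in a pair of libraries that differ in Nf1. Their promoters are shown so that the regions before their start sites can be compared. Each line holds the 250 bases before the RefSeq start of GRCm38.p6 that lies nearest to the 5' end of the GENCODE gene, written 5' to 3' on the gene's own strand. They lie at chr5:104434861-104435110 (Spp1, plus strand), chr3:54360857-54361106 (Postn, plus strand), chr4:64047016-64047265 (Tnc, minus strand) and chr17:34670285-34670534 (Tnxb, plus strand). Capitals mark matches to 6 short motifs searched on both strands.
Spp1: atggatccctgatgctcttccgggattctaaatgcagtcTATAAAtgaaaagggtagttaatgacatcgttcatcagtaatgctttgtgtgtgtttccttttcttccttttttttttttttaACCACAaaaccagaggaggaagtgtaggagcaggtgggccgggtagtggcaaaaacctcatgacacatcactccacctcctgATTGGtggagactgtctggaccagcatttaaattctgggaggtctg
Postn: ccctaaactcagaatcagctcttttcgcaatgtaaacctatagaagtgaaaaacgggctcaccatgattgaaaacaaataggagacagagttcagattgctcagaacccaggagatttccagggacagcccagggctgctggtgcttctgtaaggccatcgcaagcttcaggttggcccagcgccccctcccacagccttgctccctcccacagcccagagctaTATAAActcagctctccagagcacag
Tnc: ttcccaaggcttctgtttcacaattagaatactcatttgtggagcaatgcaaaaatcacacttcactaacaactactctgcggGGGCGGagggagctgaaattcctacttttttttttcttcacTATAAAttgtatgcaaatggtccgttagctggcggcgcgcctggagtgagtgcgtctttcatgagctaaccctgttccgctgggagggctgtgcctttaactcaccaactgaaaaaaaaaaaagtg
Tnxb: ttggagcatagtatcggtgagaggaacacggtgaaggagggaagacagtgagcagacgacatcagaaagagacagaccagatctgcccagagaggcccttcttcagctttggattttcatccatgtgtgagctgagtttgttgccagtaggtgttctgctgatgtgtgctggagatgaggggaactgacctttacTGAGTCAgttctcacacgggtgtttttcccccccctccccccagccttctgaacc

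The TATA box letters TATAAA occurred in 3 of these 4 windows, those of Spp1, Postn and Tnc, and in 12.4% of all 32817 such windows. In Postn the match began 26 bases before the start site, in Tnc 126 and in Spp1 211 bases before it. The Spp1 window also held 1 match to the RUNX letters TGTGGT (14% of windows) and 1 to the CCAAT box letters CCAAT (33.8%), both on the opposite strand. The Tnc window held the GC box letters GGGCGG (32.7%), and the Tnxb window held the AP-1 letters TGANTCA (6.75%). The TEAD letters GGAATG (12.6%) occurred in none of the 4. No matches overlapped. These matches describe letters and not bound sites. Of the 10 genes, 8 had an entry in the promoter table.

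**Figure D1:**
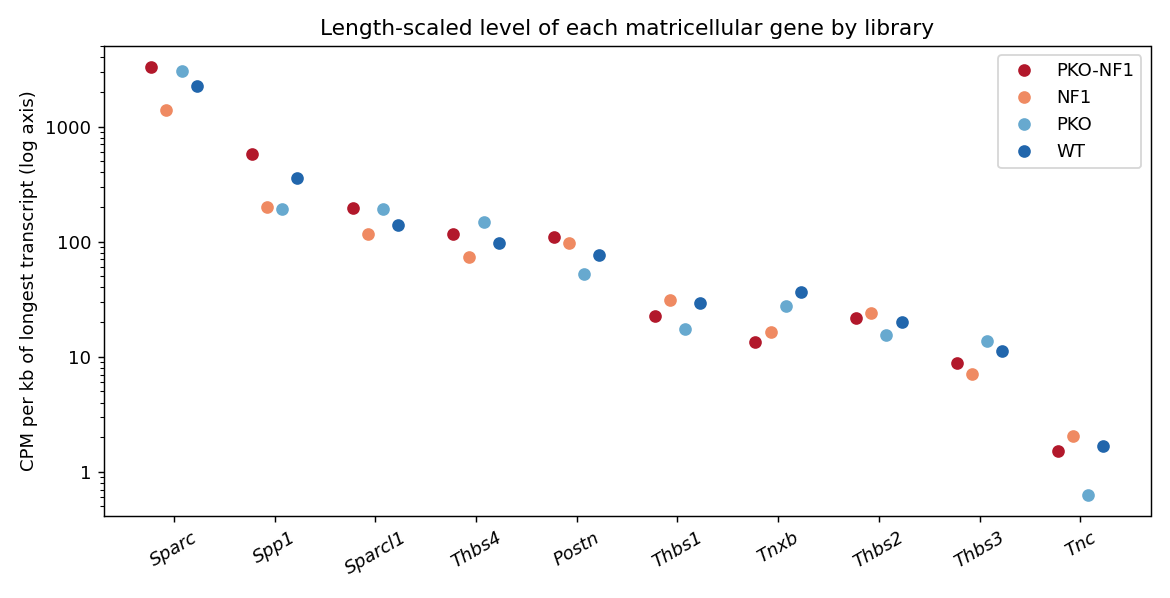
Length-scaled level of each matricellular gene in each library, as CPM per kb of the longest transcript on a log axis, with genes ordered by their mean. Sparc lies highest in all 4 libraries, between 1392 and 3275 CPM per kb, and Tnc lowest, between 0.633 and 2.03 CPM per kb.

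Sparc, a collagen-binding glycoprotein that steers collagen assembly and cell rounding, was the most abundant of the 10 per length in every library. Its level was 3275 CPM per kb of longest transcript in PKO-NF1, 1392 in NF1, 3070 in PKO and 2249 in WT. By this measure Sparc ranked 14th, 33rd, 29th and 7th of 14596 genes in the same order of libraries. It made up 72.7%, 62.4%, 76.6% and 68.0% of the summed CPM of the 10 genes, so the sum follows Sparc.

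Spp1 (osteopontin, an integrin and Cd44 ligand) came next per length, at 579 CPM per kb in PKO-NF1, 200.2 in NF1, 192.5 in PKO and 357 in WT. Sparcl1 (hevin, a relative of Sparc) followed at 196, 116, 190.5 and 139.6 CPM per kb. Thbs4 and Postn were next, between 52.2 and 149.6 CPM per kb. Thbs1, Thbs2 and Tnxb lay between 13.6 and 36.8 CPM per kb, Thbs3 between 7.14 and 13.8, and Tnc between 0.633 and 2.03. The order below Sparc depended on the gene model: per kb of all annotated exons, Sparcl1 stood above Spp1 in PKO and Thbs4 above Postn in NF1.

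**Figure D2:**
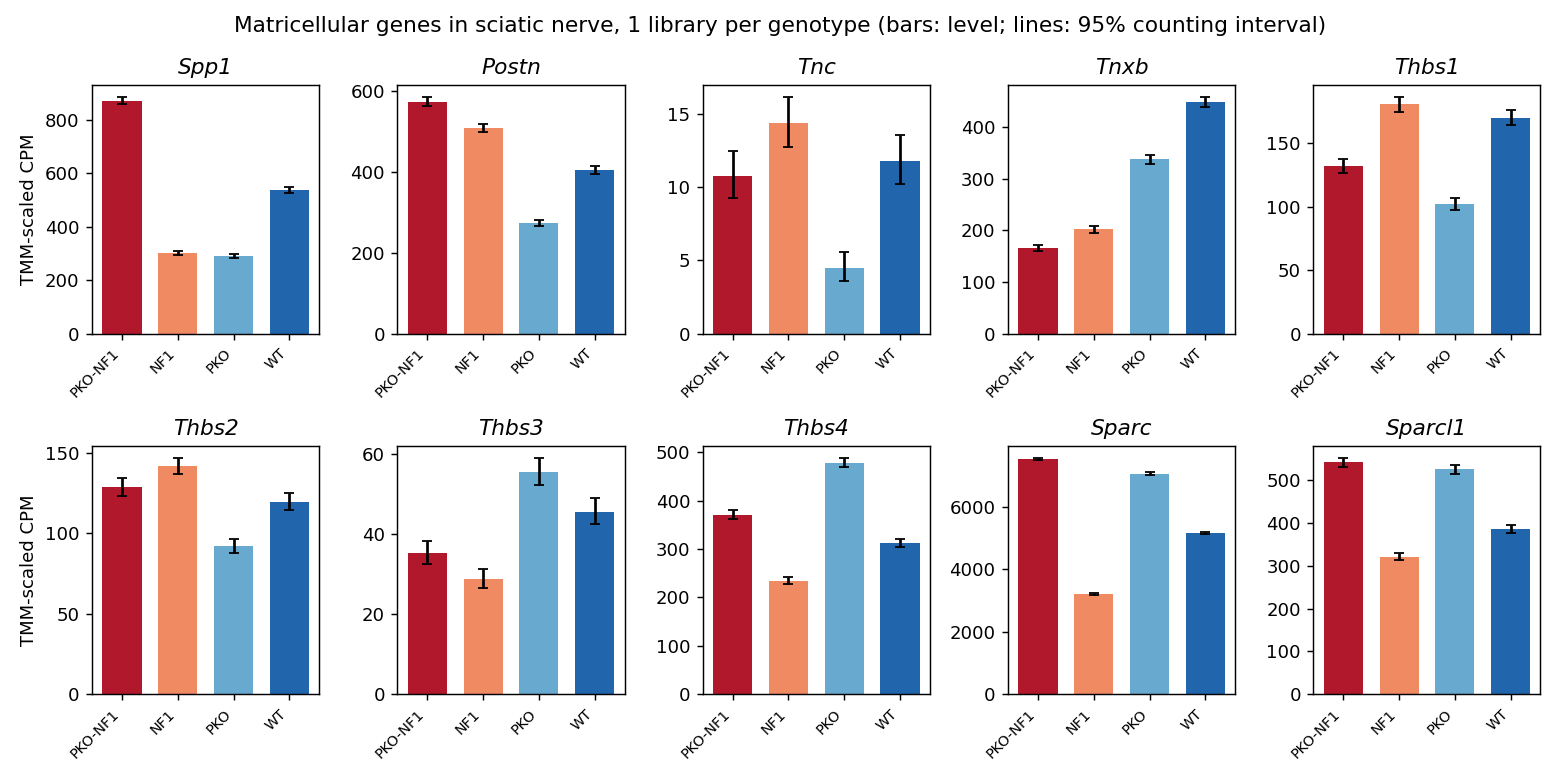
TMM-scaled CPM of each gene (bars) with its 95% counting interval (lines), 1 library per genotype. Spp1 stands at 873 CPM in PKO-NF1 and at 290.1 to 538 CPM in the other libraries, while Tnxb is lower in both Nf1-mutant libraries (165 and 202 CPM) than in PKO (338 CPM) and WT (449 CPM).

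The comparison of NF1 with WT, and of PKO-NF1 with PKO, asks what differs in nerve with Nf1 loss in the Dhh-Cre lineage, with P2ry14 present and absent. These 2 pairs share no library. In PKO-NF1 against PKO, 3 of the 10 genes were called higher (Spp1, Postn and Tnc), beside 5.20% of all genes tested, and 1 was called lower (Tnxb), beside 9.70%. In NF1 against WT none was called higher, beside 10.4% of all genes, and 1 was called lower (Tnxb), beside 6.31%. Tnxb was the single member called the same way in both pairs; 2.60% of all genes were lower in both and 1.29%, with no member among them, were higher in both. Over the 10 genes the median log2 ratio was -0.34 for NF1 vs WT and 0.23 for PKO-NF1 vs PKO, beside 0 and -0.01 over all genes.

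**Figure D3:**
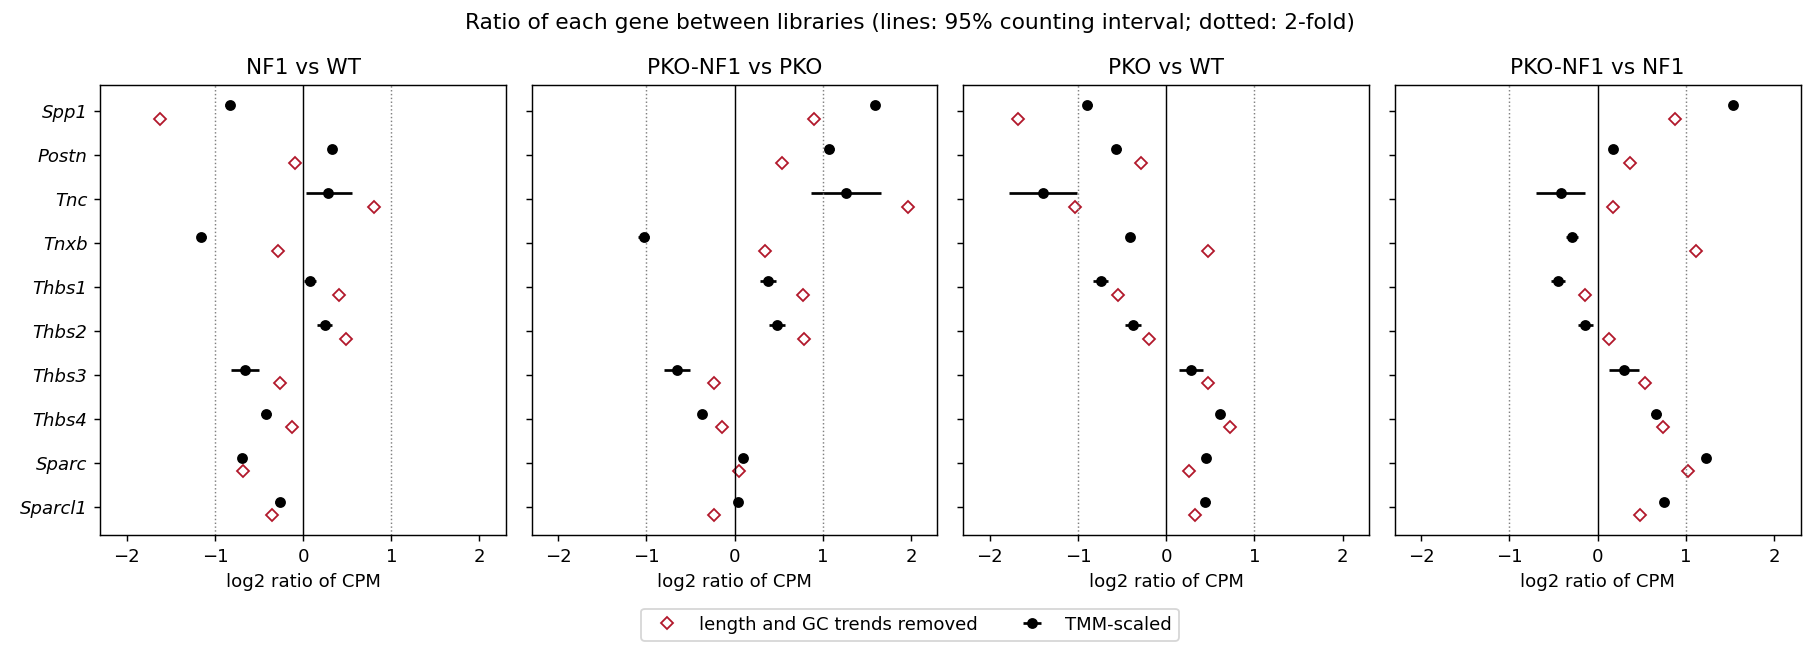
Log2 ratio of TMM-scaled CPM for each gene in the 4 pairs of libraries (black points, lines giving the 95% counting interval) and the same ratio corrected for transcript length and GC content (open diamonds). In PKO-NF1 vs PKO, Spp1 lies at 1.59 and Tnxb at -1.03, with diamonds at 0.90 and 0.34.

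Osteopontin is secreted by Schwann cells and macrophages among others and acts on adhesion and inflammation. Spp1 (chromosome 5, 104435118 to 104441050, plus strand of GRCm38) had 14304 counts in PKO-NF1, 5945 in NF1, 5160 in PKO and 9121 in WT. Scaled, these were 873 CPM in PKO-NF1, 302 in NF1, 290.1 in PKO and 538 in WT. On this scale PKO-NF1 was the highest library, WT the next, and NF1 and PKO lay close together below them. The order of the highest 2 turned after correction for length and GC content, with a log2 ratio of -0.69 in PKO-NF1 vs WT against 0.70 before it. Spp1 was 3.01-fold higher in PKO-NF1 than in PKO (2.91 to 3.11), but 1.78-fold below WT in NF1 (1.73 to 1.84). The 2 Nf1 ratios differed by 2.42 on the log2 scale (2.36 to 2.49, counting error only), a difference above that of 99.4% of all genes tested. The difference was 2.52 after that correction. The call in PKO-NF1 vs PKO was then lost (1.87-fold) and Spp1 was called lower in NF1 vs WT (3.08-fold). Spp1 per Postn, each per kb within a library, was 5.28 (5.14 to 5.42) in PKO-NF1, 2.06 (1.99 to 2.12) in NF1, 3.69 (3.54 to 3.83) in PKO and 4.62 (4.47 to 4.77) in WT. Corrected, the log2 difference of this ratio in PKO-NF1 vs WT turned to -1.03, against 0.19 uncorrected. Macrophage markers summed to 1591 CPM in PKO-NF1, 939 in NF1, 1412 in PKO and 997 in WT, with 1 of 12 markers called higher in PKO-NF1 vs PKO and none lower; their part in the Spp1 ratios was not tested. Markers of bone and cartilage, tissues in which osteopontin is also abundant, summed to 23.9 to 31.3 CPM, of which Col2a1 gave 23.5 to 30.3 CPM; the bone genes Bglap, Ibsp and Sp7 were at 0 to 0.354 CPM.

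Periostin binds collagen and integrins and is made largely by fibroblasts. Postn (chromosome 3, 54361109 to 54391037, plus strand) stood at 573 CPM in PKO-NF1, 508 in NF1, 273 in PKO and 404 in WT. Both Nf1-mutant libraries were above both libraries with intact Nf1. The ratio was 2.10-fold in PKO-NF1 vs PKO (2.03 to 2.18) and 1.26-fold in NF1 vs WT (1.22 to 1.30), short of a call in the second pair. Correction for length and GC content ended the call in PKO-NF1 vs PKO (1.45-fold) and turned the log2 ratio in NF1 vs WT to -0.09. Its longest transcript is 36.3% GC, lower than in all but 0.733% of the genes tested. The 12 nerve fibroblast markers, with no call in either Nf1 pair, summed to 17330 CPM in PKO-NF1 and 15930 CPM in PKO, and to 9934 CPM in NF1 and 11060 CPM in WT; their part in the Postn ratios was not tested.

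The tenascins lay on opposite sides of no change in the Nf1 pairs. Tenascin-C is a glycoprotein of developing and injured tissue, and tenascin-X is a large fibril-associated protein whose loss in humans causes a form of Ehlers-Danlos syndrome. Tnc (chromosome 4, 63959785 to 64047015, minus strand) was the rarest of the 10 genes, with 177 counts in PKO-NF1, 284 in NF1, 80 in PKO and 200 in WT. Its level was 10.8 CPM in PKO-NF1, 14.4 in NF1, 4.50 in PKO and 11.8 in WT. PKO was the low library, and the counting intervals of PKO-NF1 and WT overlapped. Corrected for length and GC content, the log2 ratio of PKO-NF1 vs WT was 1.02, against -0.13 before it. The Tnc ratio was 2.40 in PKO-NF1 vs PKO (1.83 to 3.17), a call, and 1.22 in NF1 vs WT (1.02 to 1.47). After the length and GC correction, these ratios were 3.92-fold and 1.74-fold. Of 10 repair and immature Schwann cell genes tested, 4 were called higher and none lower in PKO-NF1 vs PKO. In PKO vs WT 6 were called lower and 1 higher, and in PKO-NF1 vs NF1 3 were lower and 1 higher. None was called in NF1 vs WT. The 12 genes of this list summed to 241.2 CPM in PKO-NF1, 229.1 in NF1, 221.5 in PKO and 318.6 in WT. Their part in the Tnc ratios was not tested.

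Tnxb (chromosome 17, 34670535 to 34719815, plus strand) stood at 165 CPM in PKO-NF1, 202 in NF1, 338 in PKO and 449 in WT. Both Nf1-mutant libraries were below both libraries with intact Nf1. It was lower in both pairs, by 2.22-fold in NF1 vs WT (2.14 to 2.31) and by 2.04-fold in PKO-NF1 vs PKO (1.95 to 2.14). The 12209-base transcript of Tnxb was longer than those of 99% of the genes tested, and its GC content of 60.7% was above that of 96.9%. Neither call held after the correction for length and GC content: the log2 ratio was -0.28 for NF1 vs WT and 0.34 for PKO-NF1 vs PKO. In PKO-NF1 vs WT the log2 ratio turned to 0.89, against -1.44 before, so PKO-NF1 was then above both PKO and WT. Scaling by total counts alone also ended the call in PKO-NF1 vs PKO. Within a library, where no scaling between libraries enters, Tnc per Tnxb, each per kb, was 0.112 (0.0958 to 0.131) in PKO-NF1, 0.123 (0.108 to 0.138) in NF1, 0.0229 (0.0181 to 0.0285) in PKO and 0.0452 (0.0390 to 0.0520) in WT. Uncorrected, the ratio of the 2 tenascins was higher in both Nf1-mutant libraries, whose intervals overlapped each other and neither of the other libraries. Length and GC content also enter a ratio between genes. Corrected, PKO-NF1 was near WT (log2 difference 0.13) and below NF1 (-0.95), while the difference was 1.63 in PKO-NF1 vs PKO and 1.08 in NF1 vs WT.

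Thrombospondins bind calcium, integrins and other matrix proteins. Thrombospondins 1 and 2 form trimers, inhibit angiogenesis through Cd36 and bind Cd47, whereas thrombospondins 3 and 4 form pentamers and lack the domain through which the trimers bind Cd36. No thrombospondin gene was called in any of the 4 pairs. Thbs1 (chromosome 2, 118111876 to 118127133, plus strand) was at 132 CPM in PKO-NF1, 180.5 in NF1, 102 in PKO and 170.1 in WT. Thbs2 (chromosome 17, 14665500 to 14694235, minus strand) was at 129 CPM in PKO-NF1, 142 in NF1, 91.9 in PKO and 119 in WT. For both trimer genes NF1 was the highest library and PKO the lowest. The Nf1 ratios of Thbs1 were 1.30 in PKO-NF1 vs PKO (1.22 to 1.38) and 1.06 in NF1 vs WT (1.01 to 1.11), and those of Thbs2 were 1.40 (1.31 to 1.49) and 1.19 (1.12 to 1.26).

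Thbs3 (chromosome 3, 89215180 to 89226837, plus strand) was at 35.4 CPM in PKO-NF1, 28.8 in NF1, 55.6 in PKO and 45.6 in WT. Thbs4 (chromosome 13, 92751590 to 92794818, minus strand) was at 370.5 CPM in PKO-NF1, 234 in NF1, 478.5 in PKO and 313 in WT. For both pentamer genes PKO was the highest library and NF1 the lowest, the reverse of the trimer genes. In the Nf1 pairs Thbs3 was 1.57-fold lower in PKO-NF1 vs PKO (1.42 to 1.74) and 1.58-fold lower in NF1 vs WT (1.42 to 1.77), and Thbs4 was 1.29-fold (1.25 to 1.34) and 1.34-fold lower (1.28 to 1.39). The 2 Nf1 ratios differed by 0.01 on the log2 scale for Thbs3 (-0.20 to 0.23) and by 0.05 for Thbs4 (-0.03 to 0.12), less than their counting error. Thbs3 overlaps Mtx1 on the opposite strand, and the strandedness of the counting is not stated, so its counts are uncertain.

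Thbs1, Thbs2 and Tnc were higher in both Nf1 pairs and lower in both P2ry14 pairs with every counting interval leaving out 1, an order that 3.72% of all genes tested had. Thbs3 and Thbs4 had the opposite order, shared by 3.18% of all genes. These orders were noticed after the values were seen, and the 4 pairs share libraries, so they amount to which library is highest and which lowest. Under total counts alone the ratio of Thbs1 in NF1 vs WT and that of Thbs3 in PKO vs WT changed sign. Correction for length and GC content changed the sign of Tnc and Thbs2 in PKO-NF1 vs NF1, to log2 ratios of 0.17 and 0.13.

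**Figure D4:**
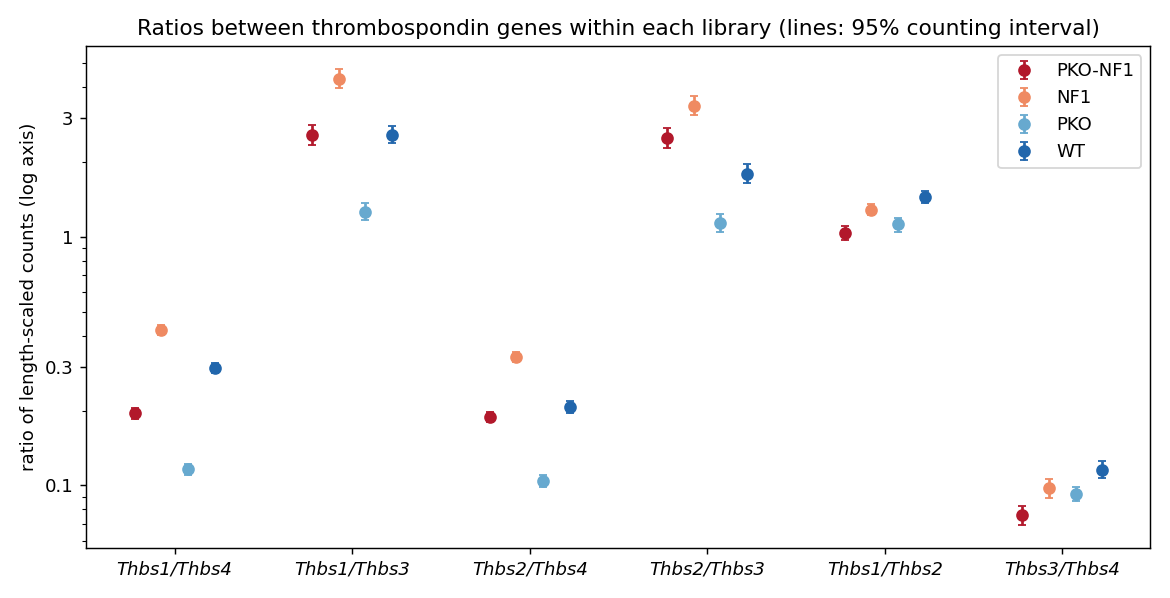
Ratios between thrombospondin genes within each library, each gene per kb of its longest transcript, on a log axis with 95% counting intervals. Thbs1 per Thbs4 is 0.195 in PKO-NF1, 0.421 in NF1, 0.116 in PKO and 0.297 in WT, and Thbs3 per Thbs4 varies less, from 0.0757 to 0.115.

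The orders above fix that a trimer gene per pentamer gene is highest in NF1 and lowest in PKO, and the ratios within a library give its size without scaling between libraries. Thbs1 per Thbs4, each per kb, was 0.195 (0.185 to 0.204) in PKO-NF1, 0.421 (0.403 to 0.440) in NF1, 0.116 (0.11 to 0.122) in PKO and 0.297 (0.284 to 0.311) in WT. None of these 4 intervals overlapped. Between the 2 trimer genes the ratio Thbs1 per Thbs2 ranged over 1.03 to 1.44, and between the 2 pentamer genes Thbs3 per Thbs4 ranged over 0.0757 to 0.115. Corrected for length and GC content, the log2 difference of Thbs1 per Thbs4 was 0.91 in PKO-NF1 vs PKO and 0.53 in NF1 vs WT, and -1.26 in PKO vs WT and -0.88 in PKO-NF1 vs NF1. Thbs4 and its relative Comp are also expressed in tendon. The 7 tendon markers found, Comp included and Thbs4 left out, summed to 84.1 CPM in PKO-NF1, 41.9 in NF1, 110.3 in PKO and 90.5 in WT, of which Fmod alone gave 28.3 to 86.5 CPM. Kera, another tendon marker, had no count in PKO-NF1 and WT. The defining tendon markers Tnmd and Scx were at 0.394 to 1.40 CPM and 0.225 to 4.01 CPM.

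Sparc and Sparcl1 had the same order of libraries. Sparc (chromosome 11, 55394500 to 55423183, minus strand) was at 7531 CPM in PKO-NF1, 3201 in NF1, 7062 in PKO and 5173 in WT. Sparcl1 (chromosome 5, 104079111 to 104113733, minus strand), an endothelial and astrocytic product best known for synapse formation in brain, was at 541 CPM in PKO-NF1, 321 in NF1, 526 in PKO and 385 in WT. In both genes the 2 libraries without P2ry14 were the highest and NF1 the lowest. After correction the log2 ratio of Sparcl1 in PKO-NF1 vs PKO turned to -0.23. Neither gene was called in an Nf1 pair: Sparc was 1.07-fold higher in PKO-NF1 than in PKO (1.06 to 1.07) and 1.62-fold below WT in NF1 (1.60 to 1.63), and Sparcl1 was 1.03-fold higher (1.00 to 1.06) and 1.20-fold lower (1.16 to 1.24). Spp1, Sparc and Sparcl1 were thus the 3 members whose Nf1 ratios lay on opposite sides of 1 with both intervals leaving out 1, as did those of 11.5% of all genes tested. The Sparcl1 interval in PKO-NF1 vs PKO left out 1 only before rounding. Sparc per Sparcl1, each per kb, was 16.7 (16.3 to 17.1) in PKO-NF1, 12 (11.7 to 12.3) in NF1, 16.1 (15.8 to 16.5) in PKO and 16.1 (15.7 to 16.5) in WT. Uncorrected, NF1 thus stood apart, and the intervals of PKO-NF1, PKO and WT overlapped. Corrected for length and GC content, the log2 difference of this ratio was 0.28 in PKO-NF1 vs PKO and 0.21 in PKO-NF1 vs WT. It was -0.33 in NF1 vs WT and -0.07 in PKO vs WT.

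The NF1 library, low in Sparc, Sparcl1, Thbs3 and Thbs4, also differed from WT in markers of other cells. Skeletal muscle genes were called higher in 19 of 19 tested, endothelial genes lower in 9 of 14, myelinating Schwann cell genes lower in 7 of 10 and adipocyte genes lower in 7 of 8. Summed CPM in NF1 and WT was 63740 and 1095 for muscle, 360.2 and 868.5 for endothelium, 8444 and 24380 for myelinating Schwann cells, and 3380 and 6036 for adipocytes. In PKO-NF1 vs PKO, where summed muscle CPM was 343 and 154, muscle genes were called higher in 11 of 19 and lower in 1. Endothelial genes were called lower in 7 of 14 and adipocyte genes in 2 of 8. Of 10 myelinating Schwann cell genes, 5 were called lower and 1 higher. The muscle gene Myh7 had no count in any library. The part of these cell types in the member ratios was not tested. Leaving the 20 muscle genes out of the table bears on the scaling alone, and moved no member's log2 ratio by 0.01 or more.

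The comparison of PKO with WT, and of PKO-NF1 with NF1, asks what differs with loss of P2ry14, with Nf1 intact and with Nf1 deleted in the Schwann cell lineage. These 2 pairs share no library with each other, but each library also enters an Nf1 pair. In PKO vs WT none of the 10 genes was called higher, beside 10% of all genes, and Tnc was called lower, beside 5.22%. In PKO-NF1 vs NF1, Spp1 and Sparc were called higher, beside 7.90% of all genes, and none lower, beside 13.8%. No member was called in both pairs, where 2.97% of all genes were higher in both and 2.85% lower in both. The median log2 ratio of the 10 genes was -0.39 in PKO vs WT and 0.23 in PKO-NF1 vs NF1, beside -0.08 and -0.01 over all genes. Cell type markers differed here too. In PKO-NF1 vs NF1, skeletal muscle genes were called lower in 19 of 19, adipocyte genes higher in 6 of 8 (12330 CPM in PKO-NF1 and 3380 in NF1), and myelinating Schwann cell genes higher in 4 of 10, as were endothelial genes in 4 of 14. In PKO vs WT muscle genes were called lower in 14 of 19 and adipocyte genes higher in 3 of 8. Their part in the member ratios was not tested.

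Tnc was lower by 2.62-fold in PKO vs WT (2.01 to 3.44) and by 1.33-fold in PKO-NF1 vs NF1 (1.10 to 1.62). Spp1 lay on opposite sides, 1.86-fold lower in PKO than in WT (1.79 to 1.92) and 2.89-fold higher in PKO-NF1 than in NF1 (2.81 to 2.98). After the correction for length and GC content, Spp1 was called lower in PKO vs WT (3.20-fold) and no longer called in PKO-NF1 vs NF1 (1.84-fold). Postn was also lower in PKO than in WT (1.48-fold, 1.43 to 1.54) and slightly higher in PKO-NF1 than in NF1 (1.13-fold, 1.10 to 1.16). Sparc was 1.37-fold higher in PKO than in WT (1.35 to 1.38) and 2.35-fold higher in PKO-NF1 than in NF1 (2.33 to 2.38). Thbs4 was higher in the P2ry14-null library of both pairs, at 1.53-fold (1.48 to 1.58) and 1.58-fold (1.52 to 1.64), short of a call. Sparcl1 was 1.36-fold (1.32 to 1.41) and 1.69-fold higher (1.63 to 1.74), and Thbs3 1.22-fold (1.11 to 1.34) and 1.23-fold higher (1.09 to 1.38). Thbs1 was 1.67-fold (1.58 to 1.77) and 1.37-fold lower (1.30 to 1.44), and Thbs2 1.30-fold (1.21 to 1.39) and 1.10-fold lower (1.04 to 1.17). Tnxb was 1.33-fold (1.28 to 1.37) and 1.22-fold lower (1.16 to 1.28), but after that correction its log2 ratios were 0.47 in PKO vs WT and 1.12 in PKO-NF1 vs NF1, the second a call in the higher direction. Ribosomal protein genes were called higher in 24 of 25 in PKO vs WT and in 7 of 25 in PKO-NF1 vs NF1. They were also called higher in 16 of 25 in NF1 vs WT, and none was called in PKO-NF1 vs PKO. Scaling by total counts alone moved the median log2 ratio of all genes to -0.22 in NF1 vs WT, 0.08 in PKO-NF1 vs PKO, -0.54 in PKO vs WT and -0.18 in PKO-NF1 vs NF1, and in PKO vs WT the ratios of Sparc, Sparcl1 and Thbs3 then changed sign.

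A model was fitted over all 4 libraries, with a term for the status of Nf1 and another for that of P2ry14. Its 1 residual degree of freedom is departure from additivity, and the error was partly shared over genes. Each p thus sets a term against such departure and not against a spread between animals. No member was called at either term with edgeR's quasi-likelihood test at an adjusted p under 0.05. At the Nf1 term 0% of 14700 genes were called (3010 at an unadjusted p under 0.05, 2 of them members, and 345 by the DESeq2 Wald test), and at the P2ry14 term 0.0816% were called (3598 at an unadjusted p under 0.05, none of them a member, and 743 by DESeq2). The smallest adjusted p of a member was that of Tnxb at the Nf1 term, with a log2 change of -1.09 (SE 0.32) and an edgeR adjusted p of 0.193; the DESeq2 Wald test gave an adjusted p of 0.032. Thbs3 followed, at -0.66 (SE 0.20) and an edgeR adjusted p of 0.198. For Spp1, whose Nf1 ratios ran in opposite directions, the Nf1 term was 0.38 (SE 0.71) with an edgeR adjusted p of 0.78.

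The genes with the most similar course over the 4 libraries were found for the 3 members with the widest range, by the Euclidean distance between log2 levels centred on their mean, among 11905 genes with a mean of 5 CPM or more. For Tnc, which spanned 3.20-fold, they were Chl1, an adhesion molecule of the L1 family (distance 0.138), 9330159F19Rik (0.161) and the palmitoyltransferase gene Zdhhc2 (0.163). Chl1 was at 104 CPM in PKO-NF1, 148.5 in NF1, 43.3 in PKO and 111 in WT. For Spp1, which spanned 3.01-fold, they were Rcl1 (0.368), Gpr85 (0.388) and Coq10b (0.416), and 6 genes in all lay within 0.5. For Tnxb, which spanned 2.71-fold, they were Plekhm1 (0.0264), Gas2l1 (0.0731) and Igsf8 (0.0922), and 648 genes lay within 0.5, beside 110 for Tnc. Among the members themselves the nearest neighbours were Sparcl1 for Thbs4 (0.312) and Thbs2 for Thbs1 (0.366), while Spp1 lay 1.04 from its nearest, Postn. Course here rests on 4 libraries, so likeness is a description of these libraries alone.

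Receptors of these proteins were described from a list of 20 genes, all of them tested. In NF1 vs WT 2 were called higher and 1 lower (median log2 ratio -0.34), and in PKO-NF1 vs PKO 2 were higher and none lower (median 0.01). As 10.4% and 6.31% of all genes were higher and lower in the first pair, its counts were near the background. In the second pair 5.20% of all genes were higher and 9.70% lower. The 2 receptors with the highest mean CPM were Itgb1 and Lrp1. Itgb1, the beta-1 integrin subunit, was at 534.5 CPM in PKO-NF1, 344.5 in NF1, 408 in PKO and 426 in WT. Lrp1, an endocytic receptor that clears thrombospondins, was at 349 CPM in PKO-NF1, 291 in NF1, 564 in PKO and 602 in WT, and was called lower in NF1 vs WT (2.07-fold). That call was lost after correction for length and GC content (1.19-fold), and Lrp1 was then called higher in PKO-NF1 vs NF1 (3.28-fold). Its log2 ratio also turned, being 0.62 in PKO-NF1 vs PKO (-0.69 uncorrected) and 0.82 in PKO vs WT (-0.09 uncorrected). No receptor was called the same way in both Nf1 pairs or in both P2ry14 pairs, but under total counts alone Cacna2d1 was called lower in both P2ry14 pairs; with TMM it was 1.98-fold lower in PKO vs WT. The other called receptors are named after their values were seen. Those higher in PKO-NF1 vs PKO were Cd44, a receptor of osteopontin (68.2 CPM in PKO-NF1 and 30.9 in PKO), and the phosphatase Ptprz1, which binds tenascin-C (8.05 CPM in PKO-NF1 and 2.14 in PKO). Those higher in NF1 vs WT were the integrin gene Itgb6 and Cacna2d1, the thrombospondin receptor that is also a subunit of the muscle calcium channel (113 CPM in NF1 and 21 in WT). In PKO vs WT none was higher and Itgb3, Itgb8 and Ptprz1 were lower (3 in all, median -0.22), or 6 under total counts and 1 after that correction. In PKO-NF1 vs NF1 Cd36 was higher, at 577 CPM in PKO-NF1 and 203 in NF1, and Itgb6 and Cacna2d1 were lower (median 0.13). Over all genes 10% were higher and 5.22% lower in PKO vs WT. In PKO-NF1 vs NF1 7.90% of all genes were higher and 13.8% lower, so the receptor counts of that pair were not above the background.

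**Figure D5:**
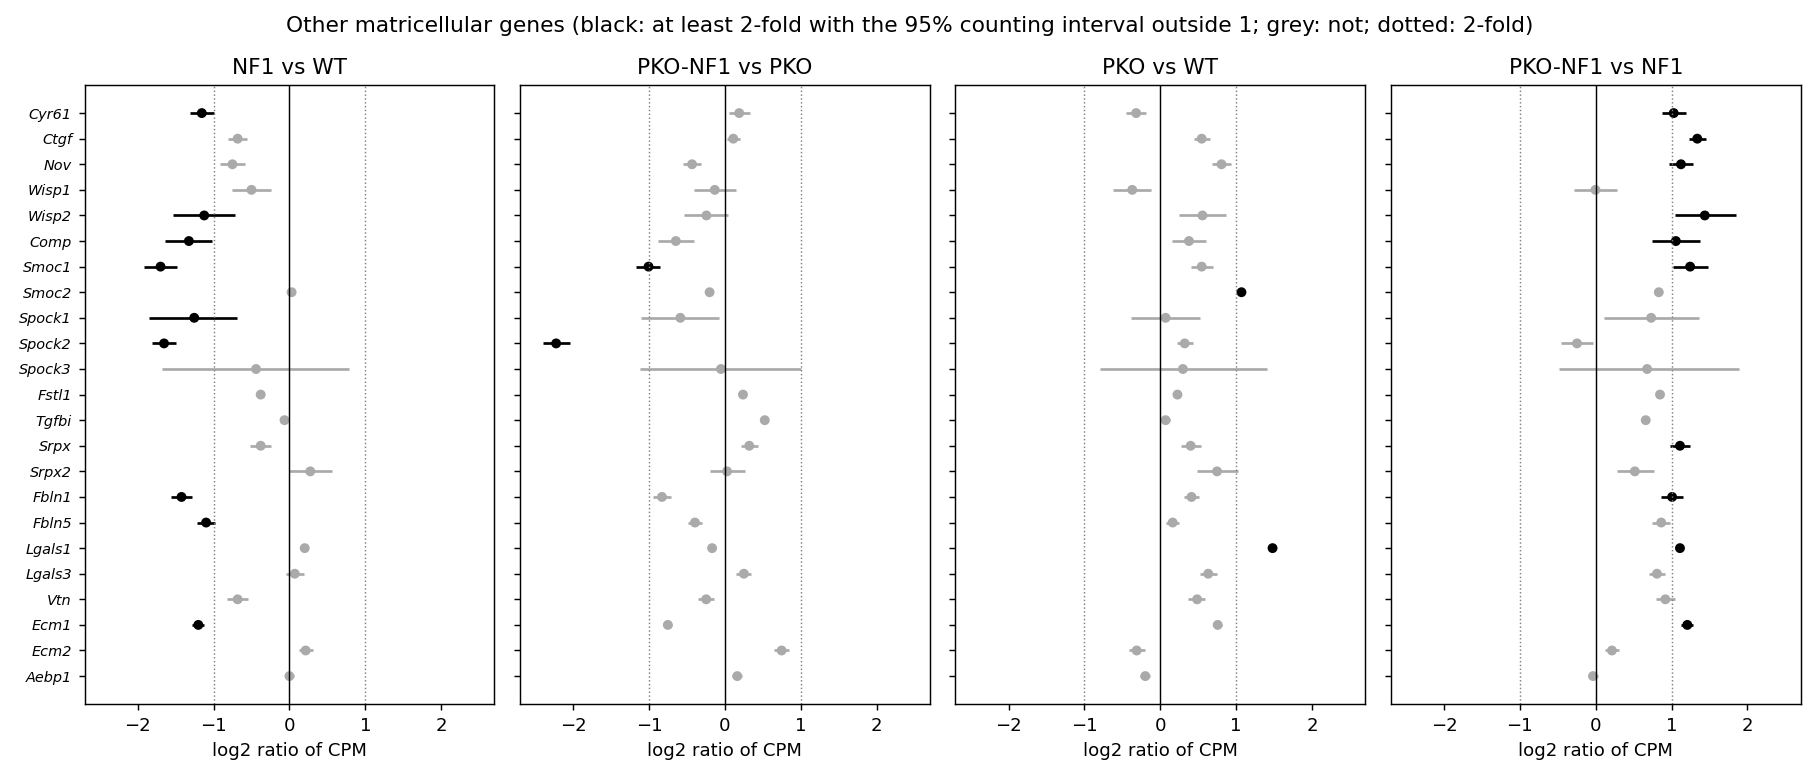
Log2 ratio of TMM-scaled CPM for 23 other matricellular genes in the 4 pairs of libraries, with 95% counting intervals. Black points are called genes: 9 are lower in NF1 vs WT, and 2 are lower in PKO-NF1 vs PKO, while 2 are higher in PKO vs WT and 10 in PKO-NF1 vs NF1. Over all genes the shares called in these directions are 6.31%, 9.70%, 10% and 7.90%, in that order.

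A list of 26 other matricellular genes, covering the CCN family (under older symbols such as Cyr61 and Ctgf), relatives of Sparc, galectins and fibulins, held 23 that were tested. In NF1 vs WT 9 were called lower and none higher (median log2 ratio -0.68), and in PKO-NF1 vs NF1 10 were higher and none lower (median 0.86). Over all genes 6.31% were lower in the first pair and 7.90% higher in the second, with medians of 0 and -0.01. These 2 pairs share the NF1 library, so a low value there enters both. Under total counts alone the second count was 4, and after correction for length and GC content the counts were 8 and 7. Named after their values were seen, Smoc1, Fbln1, Comp, Cyr61, Wisp2 and Ecm1 were called in both pairs, lower in NF1 than in WT and higher in PKO-NF1 than in NF1. The share of all genes with both calls was not computed. In PKO-NF1 vs PKO 2 were lower, Spock2 and Smoc1, beside 9.70% of all genes, and none higher (median -0.17). In PKO vs WT 2 were higher, Lgals1 and Smoc2, beside 10% of all genes, and none lower (median 0.40). Under total counts, or after correction for length and GC content, each of these counts was 1. The 2 genes lower in both Nf1 pairs, beside 2.60% of all genes, were relatives of Sparc with calcium-binding domains. Spock2 (testican-2) was at 19.5 CPM in PKO-NF1, 23.1 in NF1, 90.9 in PKO and 72.6 in WT, and was lower by 3.14-fold in NF1 vs WT (2.82 to 3.51) and by 4.67-fold in PKO-NF1 vs PKO (4.14 to 5.28). These were 2.14-fold and 2.87-fold after correction for length and GC content. Smoc1 was at 29.0 CPM in PKO-NF1, 12.2 in NF1, 58.2 in PKO and 39.8 in WT, lower by 3.25-fold in NF1 vs WT and by 2.01-fold in PKO-NF1 vs PKO, the second short of a call after that correction (1.63-fold). Galectin-1, Lgals1, was called higher in both P2ry14 pairs, at 1782 CPM in PKO-NF1, 825.5 in NF1, 2002 in PKO and 717 in WT. It was 2.79-fold higher in PKO vs WT (2.74 to 2.85) and 2.16-fold higher in PKO-NF1 vs NF1 (2.12 to 2.20), but after that correction 1.28-fold and 1.55-fold, neither a call. Smoc2, the most abundant of this list, was at 1974 CPM in PKO-NF1, 1108 in NF1, 2268 in PKO and 1081 in WT.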

How the data were processed

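Per the labels' protocols, RNA was taken from flash-frozen sciatic nerve with Trizol, and libraries were made with a TruSeq RNA kit. The deposited values are raw counts per gene symbol in 1 table. Tools named in the submitters' processing notes are HISAT2 2.0.5, featureCounts 1.5.2 and FastQC 0.11.7, with build mm10. The sources used here do not give strandedness, annotation or how multimapping reads were counted. Groups came from sample titles, and 0 columns lacked a sample.

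Counts were scaled with TMM factors of edgeR 4.0.16 (0.922, 1.03, 0.873 and 1.20 in PKO-NF1, NF1, PKO and WT). Ratios have exact conditional (Clopper-Pearson) 95% intervals; where 1 library had 0 counts, 3 counts were used. The additive model used glmQLFit and glmQLFTest with Benjamini-Hochberg adjustment over 14700 genes. Both steps were tested on simulated data. The outcome is not given here, and it does not bear on a spread between animals. GENCODE M21 (GRCm38), matched by 98.4% of symbols, gave coordinates and the length and GC content of each longest transcript; promoters came from RefSeq, GRCm38.p6. Trends were splines with 4 degrees of freedom in log10 length and GC content, fitted per pair without muscle genes and subtracted with the median gene kept.

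The members and lists were chosen with earlier results of these data known. The genes named are the 10 members, P2ry14 and Nf1; of each pathway list the genes called the same way in both Nf1 or both P2ry14 pairs and the 2 most abundant; and the 3 genes nearest in course to each of the 3 widest-ranging members. Exceptions are stated. Alternatives were DESeq2 1.42.0 size factors, total counts, muscle genes removed, trends removed, a 1.5-fold threshold, no filter, a 5 CPM filter, the DESeq2 Wald test and models with 1 term; the pathway lists, the ratios between 2 members and PKO-NF1 vs WT were added to them after values were seen.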

Additional observations from a re-analysis of the deposited data

Results flagged for a closer look

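In 3 of the 10 genes the ratio of the Nf1-mutant to the Nf1-intact library ran one way without P2ry14 and the other way with it, each interval leaving out 1. The same held for 11.5% of all genes tested. The difference was not tested, since each ratio compares single libraries. For Spp1 the log2 ratio was 1.59 in PKO-NF1 vs PKO and -0.84 in NF1 vs WT, a difference of 2.42 (2.36 to 2.49, counting error only). For Sparc it was 0.09 and -0.69, a difference of 0.79 (0.77 to 0.80). For Sparcl1 it was 0.04, with an interval that left out no change only before rounding, and -0.26, a difference of 0.31 (0.24 to 0.37). Correction for length and GC content gave differences of 2.52, 0.73 and 0.12, and both Sparcl1 ratios were then negative (-0.23 in PKO-NF1 vs PKO and -0.35 in NF1 vs WT). NF1, the library labelled a repeat and the one with 6.59% of its counts from skeletal muscle genes, enters all 3 differences, and its part in them was not tested.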

How the results depend on the processing

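DESeq2 size factors and removal of the muscle genes left every count of called members as reported, and so did no filter and a 5 CPM filter. Under total counts alone 2 members were lower in NF1 vs WT (Spp1 and Tnxb), 0 lower in PKO-NF1 vs PKO and 4 lower in PKO vs WT (Spp1, Postn, Tnc and Thbs1). After correction for length and GC content 1 member was higher and 0 lower in PKO-NF1 vs PKO, 2 were lower in PKO vs WT, and Tnxb turned to a log2 ratio of 0.34 in PKO-NF1 vs PKO; the cause was not tested. At 1.5-fold, 4 were lower in NF1 vs WT, 2 lower in PKO-NF1 vs PKO, 1 higher and 3 lower in PKO vs WT, and 4 higher in PKO-NF1 vs NF1. The DESeq2 Wald test called 1 member, Tnxb, at the Nf1 term. Of the 40 member ratios, the length and GC correction moved 38 beyond their counting interval and reversed 1 called ratio, total counts alone moved 33, and DESeq2 size factors moved 2. Leaving out a library of a pair leaves no ratio, and leaving out a library of the additive model leaves no residual degree of freedom, so neither was run. No paired analysis was possible because each genotype has 1 library. Depth limits Tnc most, with 80 to 284 counts a library.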

Other observations

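Genes that induce, activate or process matricellular proteins were described from a list of 20, all tested. In PKO-NF1 vs PKO 4 were called lower and 1 higher (median log2 ratio -0.32), in PKO-NF1 vs NF1 6 were lower and none higher (median -0.20), in PKO vs WT 2 were lower, Runx2 and Tgfbr1 (median -0.21), and in NF1 vs WT 1 was lower, Smad7 (median -0.26). Over all genes 9.70% were lower and 5.20% higher in PKO-NF1 vs PKO, 13.8% lower in PKO-NF1 vs NF1, 5.22% lower in PKO vs WT and 6.31% lower in NF1 vs WT. Runx2, a transcription factor of bone that acts on Spp1 there and that is also in the repair and immature Schwann cell list, was called lower in both P2ry14 pairs, at 2.68 CPM in PKO-NF1, 7.21 in NF1, 1.01 in PKO and 6.14 in WT. It was 6.06-fold lower in PKO vs WT (3.65 to 10.6), and in PKO-NF1 vs NF1 it was 2.68-fold lower (1.90 to 3.86); in PKO-NF1 vs PKO it was 2.65-fold higher (1.5 to 4.88). Named after their values were seen, Tead1, Srf, Mkl2 and Furin were lower in PKO-NF1 than in both PKO and NF1. They are the 4 called lower in PKO-NF1 vs PKO. At most 1 of these calls held in that pair after correction for length and GC content. Tead1, a partner of the co-activator Yap, was at 34.2 CPM in PKO-NF1, 134 in NF1 and 98.3 in PKO. The abundant members were the matrix metalloproteinase gene Mmp2, at 384.7 to 578 CPM, and the procollagen proteinase gene Bmp1, at 128 to 316 CPM. Uncorrected, Bmp1 was highest in WT and lowest in PKO-NF1, but after correction for length and GC content its log2 ratio was 0.20 for NF1 vs WT and 0.08 for PKO-NF1 vs PKO, against -0.41 and -0.72 before it. After the same correction, 1 gene of the list was lower in PKO-NF1 vs PKO, 3 in PKO-NF1 vs NF1, 1 in PKO vs WT and none in NF1 vs WT; under total counts 5 were lower in PKO vs WT.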
